A study of Arabidopsis thaliana with 16 samples.

Results

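The genes described here are dehydrogenase and oxidoreductase genes measured on a small Arabidopsis thaliana array. A gene was included where its probe names 1 gene only and its name or synonyms in the RefSeq TAIR10.1 gene table contain a word such as reductase, dehydrogenase, oxidase, oxygenase, peroxidase, cytochrome P450 or Rossmann-fold. Of 692 probes that name 1 gene, 7 met this rule. NTRC and CHLP (listed as AT1G74470, geranylgeranyl reductase), which are 2 of these 7, were left out by name, and 5 genes remained: NdhS (AT4G23890), NdhN (AT5G58260), NADP-MDH (AT5G58330), GLDH (AT3G47930) and ETFQO (AT2G43400). The tables carry a name in words for only 67 of the 692 genes, so oxidoreductases known by locus number alone were not reached, and no oxygenase, peroxidase or cytochrome P450 gene is among the 5.

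The study measured total RNA on 16 expression arrays, 8 of the pete1 mutant and 8 of the wild type (WT). The mutant lacks 1 of the plastocyanin isoforms, and all plants were of ecotype Columbia 0 and grew on soil. The labels give neither the age of the plants, the organ sampled, the kind of pete1 allele nor whether the arrays of a group come from separate plants. The p-values therefore reflect how far these arrays differ among themselves, and that spread may be technical.

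Plastocyanin is the copper protein that carries electrons from the cytochrome b6f complex to photosystem I in the chloroplast. Some of the 5 genes act in the chloroplast, and the others in mitochondria. NdhS and NdhN encode subunits of the chloroplast NADH dehydrogenase-like (NDH) complex, which returns electrons from ferredoxin to the plastoquinone pool in cyclic electron flow around photosystem I. NADP-MDH is the chloroplast malate dehydrogenase, which uses NADPH to turn oxaloacetate into malate for export, the malate valve, and is switched on by thioredoxin. GLDH and ETFQO are mitochondrial flavoproteins that feed electrons into the respiratory chain.

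Each array gives a spot intensity for 3439 probes on a linear scale with a ceiling of 100. The median intensity of an array was 0.0524 to 0.205 in pete1 and 0.129 to 0.193 in WT, and 15.8% to 24.6% of values were 0 in pete1 and 13.2% to 17.8% in WT. Levels are given below as log2 of the quantile-normalized intensity, with a floor of -4.10 used on every array. A value at the floor means that the probe was not measured above it. Within a group, each odd-numbered array and the next one (replicates 1 with 2, 3 with 4, 5 with 6 and 7 with 8) deviated together. Such arrays were averaged, and each group has 4 pair averages. No annotated probe names a plastocyanin gene, so the level of the mutated gene gives no check of the labels. Of 43 markers of leaf, root, flower, seed and guard cells, 4 had a probe that names 1 gene only, all of leaf and chloroplast. Probes that name several genes or none were not searched for markers. These 4 (LHCB1.5, PSBY, PSBW and PSAN) were above the floor on every array, with a summed level of 66.8 to 109 in pete1 and 27.5 to 73.6 in WT, in normalized intensity. Over pair averages 0 of the 4 passed the limma test (adjusted p from 0.32 to 0.68), against 0.774% of all tested probes. There 1 had an unadjusted p under 0.05, against 14.4%. Over 16 arrays 1 passed, against 12.6% of all tested probes, and 2 had an unadjusted p under 0.05, against at least that share. The part of the difference in summed level in the results below was not tested.

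None of the 5 genes passed the test between pete1 and WT. Over pair averages limma called 0 of 5, against 25 of the 3231 probes tested (0.774%). With the 16 arrays as separate samples limma again called 0 of 5, against a background of 12.6%. With the pair number as a block 0 of 5 were called, against 0.34%. At an unadjusted limma p under 0.05 the count over pair averages was also 0 of 5, where 14.4% of all tested probes had such a p. Over 16 arrays it was 0 of 5 as well. The share of all tested probes with such a p was at least 12.6% there, the share called after adjustment. The groups' pair averages overlapped for all 5 genes, while 8.05% of tested probes had pair averages that did not overlap. The median log2 change was -0.10 over the 5 genes and 0.04 over all tested probes, and 4 of the 5 estimates were below 0, as were 46.1% of those of all tested probes. Of these 4, NdhS (-0.02) and ETFQO (-0.10) turned sign with the scaling. In the plot of change against level the 5 genes lie within the cloud of probes that were not called.

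**Figure D1:**
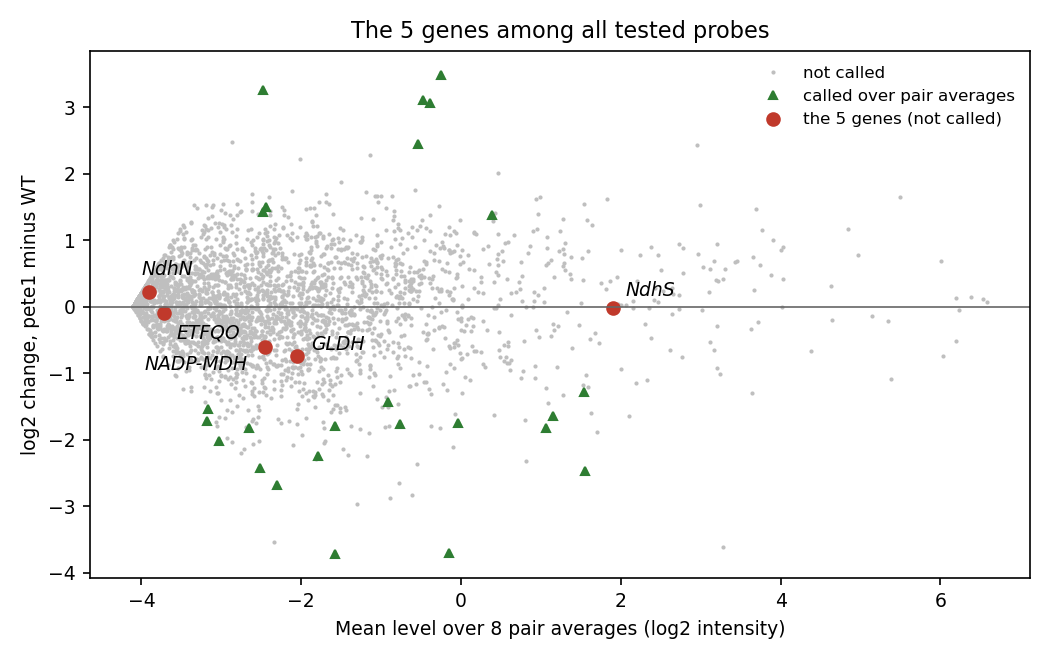
Mean level over 8 pair averages (log2 intensity, x axis) and log2 change of pete1 minus WT (y axis) for the 3231 tested probes. Red points are the 5 genes, green triangles the 25 probes called over pair averages; NdhS lies at a change of -0.02 and GLDH, the lowest of the 5, at -0.74.

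NdhS, the stroma-facing subunit that forms the ferredoxin docking site of the NDH complex, was the most evenly measured of the 5 genes within array pairs and the most variable among WT pairs. Its pair averages were 1.65, 1.82, 2.34 and 1.76 in pete1, in the order of replicate numbers, against 1.35, 2.66, 3.46 and 0.18 in WT. All 4 pete1 averages lay inside the range of the WT averages. In deposited intensity the probe ran from 2.1 to 6.60 in pete1 and from 1.29 to 14.0 in WT. The arrays of a pair differed by at most 0.24 on the log2 scale, so the WT spread lay between pairs and not within them. The mean was 1.89 ± 0.30 in pete1 and 1.91 ± 1.45 in WT (SD, n = 4 pair averages each). The log2 change was -0.02, with a 95% interval of -1.53 to 1.49 (limma adjusted p = 0.990). The interval is not adjusted for the number of probes tested, so at this spread a call would have needed a change beyond its ends.

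NdhN, a subunit of the stroma-facing subcomplex A of the NDH complex, lay at the floor on most arrays. It was above the floor on 2 of 8 pete1 arrays (replicate 1 at -3.00 and replicate 7 at -2.65) and on 1 of 8 WT arrays (replicate 4 at -3.38). The deposited value was exactly 0 on 4 pete1 arrays and 5 WT arrays. In each case the other array of the pair was at the floor, so no pair measured the gene on both of its arrays. The log2 change was 0.23 (SE 0.24, limma adjusted p = 0.718), and no fold is given because both groups lie near the floor. The size depends on the floor, and was 1.13 with each array's own (limma adjusted p = 0.333). On replicates 1 and 2 the own floors were -6.58 and -7.06 in WT, against -4.10 and -4.24 in pete1. An array that did not measure the gene takes the floor as its level. Lower floors in WT thus push the change above 0, and its sign with own floors is no separate support for a rise.

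PIFI, CRR21 and CRR41, further genes known for the NDH complex, were chosen by name to stand beside these subunits. PIFI, needed for the transient rise of chlorophyll fluorescence after light is switched off, was above the floor on every array. Its mean was -1.22 ± 0.39 in pete1 and -1.51 ± 0.68 in WT (SD, n = 4), a log2 change of 0.29 (limma adjusted p = 0.770). CRR21, a pentatricopeptide repeat protein that edits a transcript of the NDH complex, had -1.94 ± 0.48 in pete1 and -2.77 ± 0.93 in WT (SD, n = 4). Its log2 change was 0.83 with a 95% interval of -0.27 to 1.92 (limma adjusted p = 0.478). CRR41, an assembly factor of the complex, was above the floor on 2 of 8 pete1 arrays and on 0 of 8 WT arrays. Over pair averages 0 of these 3 genes passed the limma test, and 0 had an unadjusted p under 0.05. The shares of all tested probes were 0.774% and 14.4%. With the 16 arrays as separate samples limma called 0 of 3, against a background of 12.6%. There 1 of the 3, CRR21, met the same unadjusted threshold, as did at least 12.6% of all tested probes.

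NADP-MDH had lower values in most of the pete1 arrays and 1 very high value. Its pete1 arrays had a lowest level of -4.10, a median of -3.08 and a highest of 1.15, against -2.68, -2.14 and -1.50 in WT. It was above the floor on 7 of 8 pete1 arrays and on 8 of 8 WT arrays. The lowest level, on pete1 replicate 1, is the floor, and replicates 2 and 3 lay just above it. How far these arrays lay below WT is therefore limited by the floor. Pete1 replicates 1 to 4 also had the lowest array medians (0.0524 to 0.0856 in deposited intensity), and the part of this in their levels was not tested. Of the 8 pete1 arrays 6 lay below the lowest WT array and replicate 7 lay above the highest, so the groups overlapped through replicates 6 and 7. The pair averages were -4.05, -3.68, -2.50 and -0.78 in pete1 and -2.65, -2.01, -1.58 and -2.37 in WT. On replicate 7 the deposited intensity was 2.51, the highest of the gene, while the WT arrays ran from 0.175 to 0.409. The mean was -2.75 ± 1.47 in pete1 and -2.15 ± 0.46 in WT (SD, n = 4), and the log2 change was -0.60, with a 95% interval of -2.17 to 0.97 (limma adjusted p = 0.738).

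GLDH showed a similar arrangement. The gene encodes L-galactono-1,4-lactone dehydrogenase, which makes ascorbate in the last step of its synthesis, passes the electrons to cytochrome c and takes part in the assembly of respiratory complex I. Its pete1 arrays had a lowest level of -3.48, a median of -2.61 and a highest of 0.20, against -2.29, -1.77 and -1.03 in WT. Again 6 pete1 arrays lay below the lowest WT array, replicate 3 (-2.05) lay among the WT values and replicate 7 lay above all of them. The pair averages were -2.78, -2.77, -2.61 and -1.53 in pete1 and -1.04, -2.05, -1.94 and -1.71 in WT. In pete1 3 of the 4 averages were thus below every WT average. The mean was -2.42 ± 0.60 in pete1 and -1.68 ± 0.45 in WT (SD, n = 4). The log2 change was -0.74, with a 95% interval of -1.56 to 0.09 (limma adjusted p = 0.398 over pair averages and 0.300 over 16 arrays). A two-sided exact permutation test over the pair averages gave p = 0.114, where the smallest p that 4 against 4 allows is 0.0286.

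**Figure D2:**
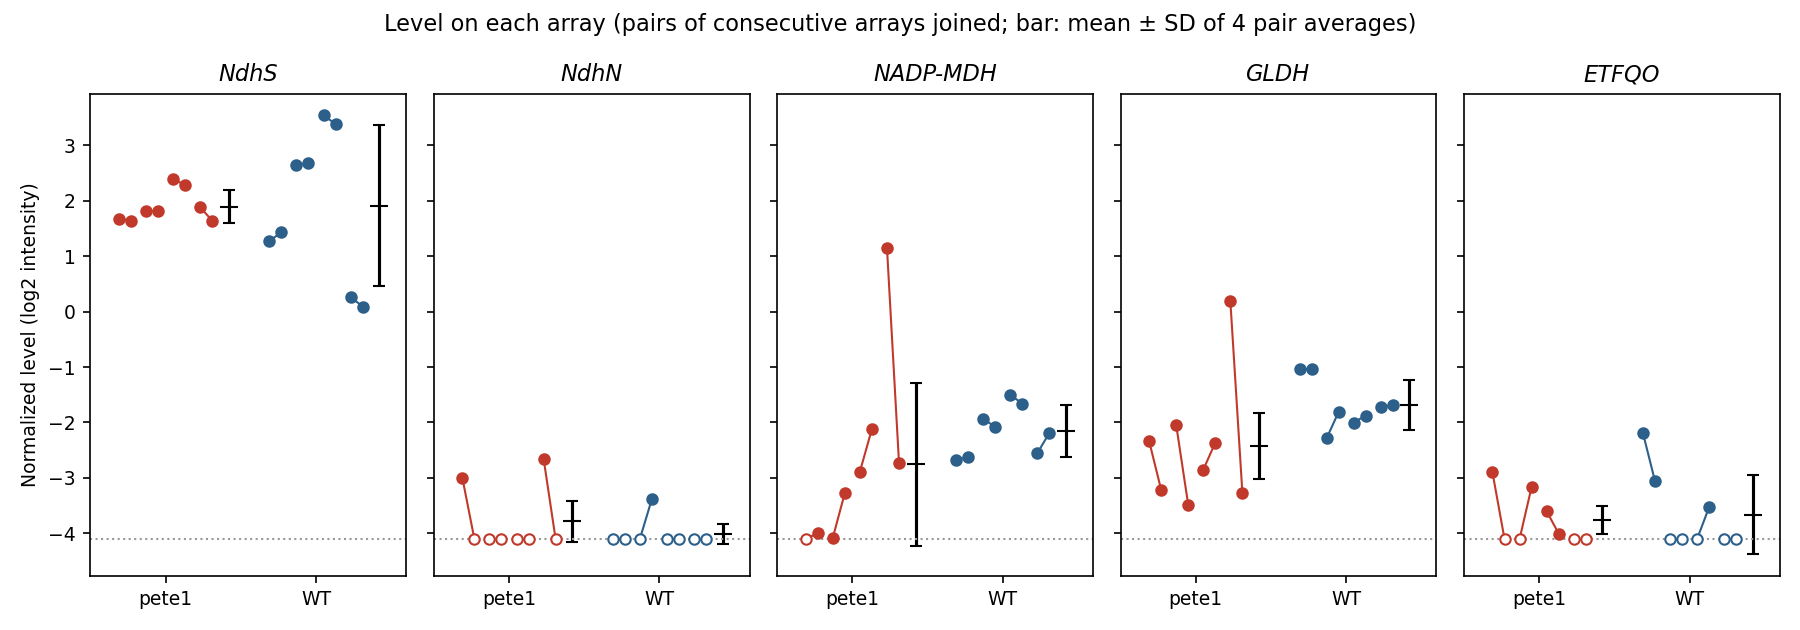
Normalized level (log2 intensity, y axis) of each gene on each array, pete1 in red and WT in blue; lines join consecutive arrays, open points are at the floor (dotted line), and black bars are the mean ± SD of 4 pair averages. For NADP-MDH and GLDH the top red point is pete1 replicate 7, at 1.15 and 0.20; the WT pairs of NdhS spread from 0.18 to 3.46.

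On pete1 replicate 7 these 2 genes stood apart from replicate 8, the array it otherwise follows. NADP-MDH was 3.88 higher on replicate 7 than on replicate 8 on the log2 scale, and GLDH 3.46 higher. Only 15 of the 3231 tested probes had a larger gap in that direction than NADP-MDH, and 21 a larger gap than GLDH. NdhN was also higher on replicate 7, by at least 1.45 because replicate 8 was at the floor, and 130 probes exceeded that gap. ETFQO was at the floor on both arrays, and NdhS differed by 0.24. Over all tested probes 172 differed by more than 2 between the arrays of this pair, 84 higher on replicate 7 and 88 higher on replicate 8. In the other 7 pairs such probes numbered 26 to 160.

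**Figure D3:**
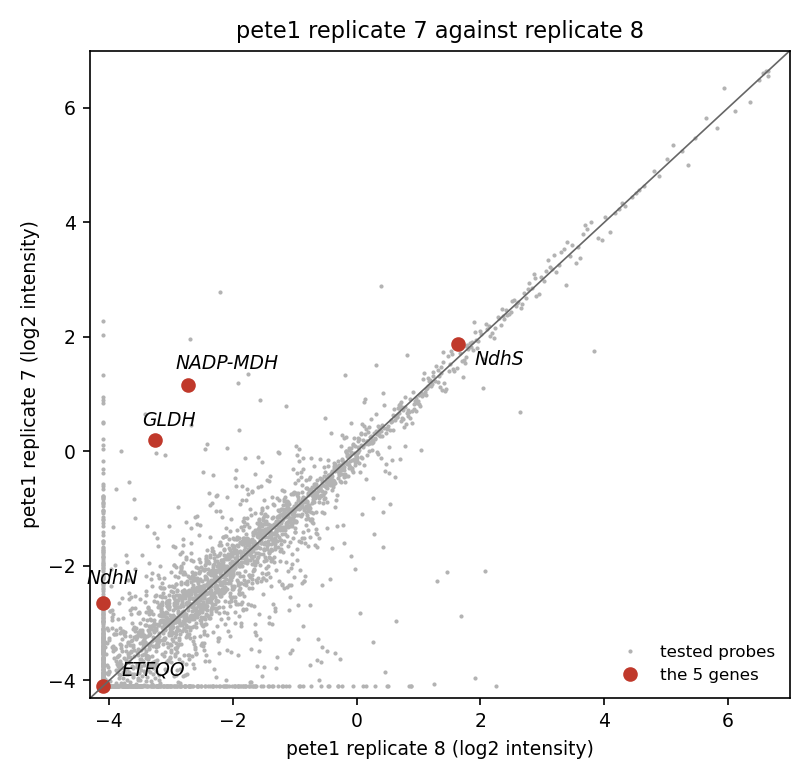
Level of each tested probe on pete1 replicate 8 (x axis) and replicate 7 (y axis), both log2 intensity; the line marks equal values and red points are the 5 genes. NADP-MDH and GLDH lie 3.88 and 3.46 above the line, and NdhS lies 0.24 above it.

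Pete1 replicate 7 was singled out because it held the highest pete1 value of NADP-MDH and of GLDH. Leaving it out therefore had to lower their pete1 means. The same choice narrowed the pete1 spread of these 2 genes, since the array left out stood far from the others. Their intervals, overlaps and p-values without replicate 7 carry that choice and are no separate support for a change. Of the arrays left out singly, it was the only one without which any of the 5 genes passed, and only over arrays. Without pete1 replicate 7 the values of NADP-MDH and GLDH were lower in pete1, and the call depended on how arrays were counted. The pete1 mean of GLDH was then -2.85 ± 0.28, against -1.68 ± 0.45 in WT (SD, n = 4), and its pair averages no longer overlapped between the groups (7.89% of tested probes did not). Its log2 change was -1.17, with a 95% interval of -1.81 to -0.54. This did not pass over pair averages (limma adjusted p = 0.0998). It passed over the remaining 15 arrays (log2 change -1.11, limma adjusted p = 0.0106), where 11.5% of tested probes were called, 5.63% lower in pete1. NADP-MDH had a mean of -3.24 ± 0.74 in pete1 and -2.15 ± 0.46 in WT (SD, n = 4), a log2 change of -1.09 (limma adjusted p = 0.275 over pair averages), and its pair averages still overlapped. Over the 15 arrays its log2 change was -1.16 (limma adjusted p = 0.0255). Consecutive arrays are not independent, so the p-values over 15 or 16 arrays are too small. Without replicate 8 instead, so that replicate 7 alone stands for the pair, the log2 changes were -0.31 for GLDH and -0.12 for NADP-MDH (limma adjusted p = 0.879 and 0.974). The changes of NdhS, ETFQO and NdhN without replicate 7 were -0.05, -0.10 and 0.05.

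**Figure D4:**
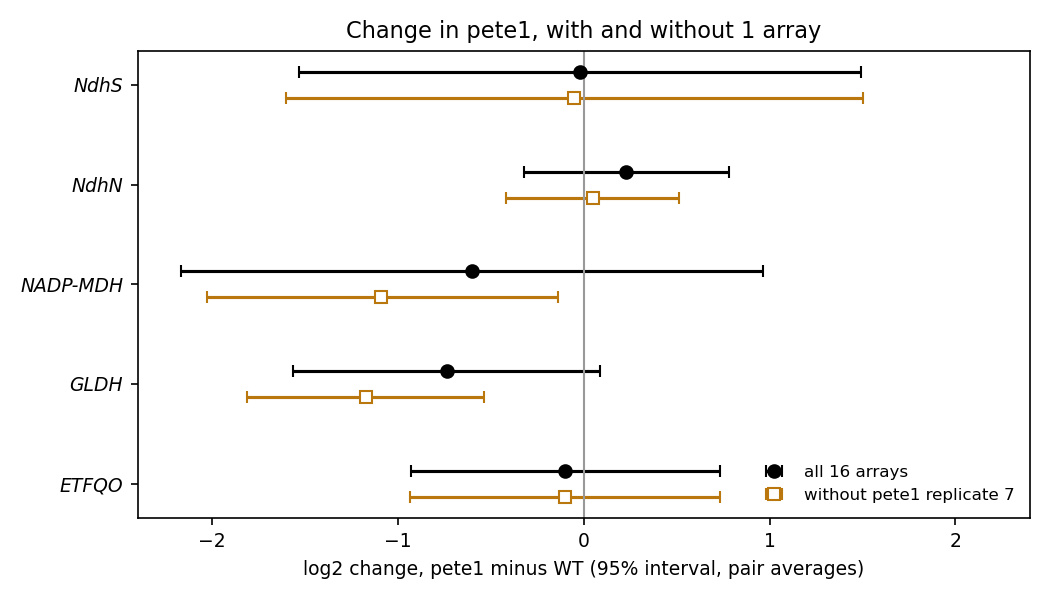
Log2 change of pete1 minus WT (x axis) with its 95% limma interval over pair averages for each gene, from all 16 arrays (black circles) and without pete1 replicate 7 (open squares). Without that array the estimate of GLDH lies at -1.17 in place of -0.74 and that of NADP-MDH at -1.09 in place of -0.60; NdhS and ETFQO move little.

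NdhN and NADP-MDH lie near each other on chromosome 5, with 6 protein-coding genes between them in the RefSeq TAIR10.1 table. Both had their highest value on pete1 replicate 7, at -2.65 for NdhN and 1.15 for NADP-MDH. GLDH, on chromosome 3, also had its highest value on that array, at 0.20. Detection cannot be compared between the NdhN and NADP-MDH probes, which differ in brightness.

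ETFQO passes electrons from the electron-transfer flavoprotein to ubiquinone and is known in Arabidopsis for its part in the breakdown of branched-chain amino acids when carbon is short. It was above the floor on 4 of 8 pete1 arrays and on 3 of 8 WT arrays. The highest values were -2.90 in pete1 (replicate 1) and -2.19 in WT (replicate 1), and the median array was at -4.05 in pete1 and at the floor in WT. The pair averages were -3.50, -3.63, -3.80 and -4.10 in pete1 and -2.62, -4.10, -3.82 and -4.10 in WT. The highest average was that of WT replicates 1 and 2. Only 1 other pair was above the floor on both arrays, pete1 replicates 5 and 6, at -3.60 and -4.01. The log2 change was -0.10, with a 95% interval of -0.93 to 0.73 (limma adjusted p = 0.921).

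Among genes that supply or regulate redox enzymes (thioredoxins, glutaredoxins, ferredoxins, catalases, superoxide dismutases, glutathione transferases), the tables name 1 that is measured by a probe of its own, the copper chaperone CCS, which loads copper into superoxide dismutase. Genes that met the rule for the reductase and dehydrogenase genes, or were left out of it by name such as NTRC, were not counted here. CCS had -2.87 ± 0.21 in pete1 and -2.26 ± 0.69 in WT (SD, n = 4). Its log2 change was -0.61 (limma adjusted p = 0.469), so 0 of 1 passed. The WT spread came from replicates 1 and 2, which averaged -1.25, while the other WT pairs lay between -2.80 and -2.48. These are also the WT arrays on which GLDH and ETFQO had their highest pair average. NADP-MDH and PIFI had their lowest WT pair average on them, at -2.65 and -2.04.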

How the data were processed

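The deposited table gives intensity, read as linear spot brightness with a ceiling of 100; no source used here gives the scanning, background correction, scaling or genome build. Groups and replicate numbers came from the sample titles. Intensities were quantile-normalized (limma 3.58.1 in R 4.3.3). The 5th percentile of each array's positive values was found, and the highest of the 16 (0.0582, or -4.10 in log2, at or below which 28.4% of values lie) was used as the floor on all arrays, since the arrays' own floors ran from -7.06 to -4.10. The 208 probes with no value above it were left out, and 3231 were tested. Consecutive arrays of a group were averaged after log2: their deviations from the group mean correlated with a median of 0.502 (other arrays of a group: -0.303), and the closest array was the consecutive one for 16 of 16. The comparison, pete1 minus WT, used limma's lmFit and eBayes, two-sided, with Benjamini-Hochberg adjustment over all tested probes and a threshold of 0.05; the fit over 16 separate arrays is given beside it. Same-numbered arrays of pete1 and WT showed correlated deviations (0.0633 to 0.435; 7 of 8 over 0.1); same-numbered pair averages did so with 0.112 to 0.481, all 4 over 0.1, so the pair number was also fitted as a block (11 probes called, 0.34%, and 0 of the 5 genes). No label explains what a shared number stands for. The rule for named genes took every call, the smallest p and highest level in each keyword class, and pair averages that do not overlap; all 5 genes are described, as members. Members, lists and the averaging were chosen with earlier results of these data known; the NDH genes PIFI, CRR21 and CRR41 were added by name. Both fits were tested on simulated data in which consecutive arrays were made to correlate; there the fit over pair averages made few false calls, and the fit over 16 arrays made more false calls than its adjusted p allows. Alternatives varied scaling, floor, filter, prior, block and arrays used. The number of arrays limits the precision.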

Additional observations from a re-analysis of the deposited data

Results flagged for a closer look

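For the 5 genes, CCS and the 3 further NDH genes, the highest and lowest of the 8 arrays of a group were set against the other arrays. An array stood apart in 4 of 17 such sets. The rule is set to pick about 1 in 20 sets of independent values, a rate that does not hold here, since consecutive arrays deviate together and many values are tied at the floor. On pete1 replicate 7 NADP-MDH was at 1.15 on the log2 scale, with the next pete1 value at -2.12, and GLDH was at 0.195, with the next at -2.05. NdhN was at -3.38 on WT replicate 4, with all other WT arrays at the floor, where any single measured value stands apart. CRR41 was at -3.01 on pete1 replicate 4, with the next pete1 value at -3.60 and the other 6 arrays at the floor. No cause of these values was tested.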

How the results depend on the processing

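Over pair averages none of the 5 genes passed in any of 37 settings compared (the filter of at least 8 arrays left NdhN and ETFQO untested), with the replicate block the adjusted p being 0.315 for GLDH and 0.620 or higher for the others; CCS, the 1 redox partner gene, passed in none. Over arrays 0 of 5 passed in 28 of 30 settings, and leaving out 1 array gave 0 to 2: without pete1 replicate 7 there were 2, GLDH and NADP-MDH, both lower, also 2 with each array's own floor (a combination chosen after seeing the data). GLDH, NADP-MDH and NdhN kept their direction in every setting, but prior, filter and block cannot alter it. GLDH ran from -1.17 to -0.31 with 1 array left out and from -1.24 (deposited scale) to -0.52 (without WT pair 1 and 2) otherwise. NADP-MDH likewise ran from -1.09 to -0.12 and from -1.26 (without the pete1 pair 7 and 8) to -0.17 (without pete1 pair 1 and 2). NdhN ran from 0.05 to 0.41 with 1 array left out and to 2.26 with own floors (1st percentile). NdhS and ETFQO, near 0, turned sign. NdhS was 0.259 when scaled to the 75th percentile, 0.287 after median centring, -0.0501 to 0.00975 with 1 array left out, 0.0598, 0.00316 and 0.0241 without the pete1 pairs 1 and 2, 3 and 4, and 7 and 8, and 0.230 and 0.496 without the WT pairs 3 and 4, and 5 and 6, but -0.60 without the WT pair 7 and 8. ETFQO was 0.0420 when scaled to the 75th percentile, 0.0668 after median centring, 0.183 after cyclic loess, 0.304 and 0.235 with own floors at the 5th and 1st percentile (0.267 at the 5th and without pete1 replicate 7), -0.250 to 0.0505 with 1 array left out, 0.0146 without the pete1 pair 7 and 8 and 0.248 without the WT pair 1 and 2. The cause was not tested. On the deposited scale the median of all tested probes was -0.30, and with own floors 0.15; the changes given here are not corrected for these medians. Among all tested probes there were 25 calls, 8 of them higher; the alternatives gave 19 calls with scaling to the 75th percentile (8 higher), 24 on the deposited scale (5 higher), 9 and 6 with own floors (5 higher each), 8 with a trend in the prior, 11 with the replicate block and 2 to 48 without 1 pair; the 408 over arrays became 144 with pairs as a random block. Values at the floor limit what the NdhN and ETFQO probes can show. Values at or just above it on pete1 replicates 1 to 3 also limit what the NADP-MDH probe can show.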
